A study of Mus musculus with 24 samples.

Results

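Pleural tumors of mice given both a STING agonist and an antibody to PD-L1 were compared with pleural tumors of mice given saline, 3 libraries against 3. Of 54505 genes in the expression table, 12512 had an FPKM (a fragment count scaled by gene length and library depth) of at least 1 in 3 or more of these 6 libraries. Of these, 14 were left out because no whole read count could be recovered from their values, which left 12498 genes tested. The 6 libraries are part of 24, which cover tumor and pleural fluid cells under 4 treatments.

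All mice were C57BL/6 animals carrying malignant pleural effusions of Lewis lung carcinoma, a mouse lung cancer line known as LLC, and were assigned to treatment at random. On day 11 the control mice received phosphate-buffered saline (PBS) into the pleural cavity. The mice of the combination group received 1 µg of LNP-CDN, a liposomal nanoparticle loaded with the cyclic dinucleotide cGAMP, together with 30 µg of the anti-PD-L1 antibody 10F.9G2. On day 13 the tumors were cut, digested with enzymes and strained, red cells were lysed, and RNA was taken from the cells of individual mice. Tumors from mice given LNP-CDN alone or anti-PD-L1 alone, 3 libraries each, were collected in the same way. Age and sex are not given in the labels, every tumor came from the same cancer line, and a group given empty nanoparticles or a control antibody was not analysed here.

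cGAMP is the natural messenger that binds STING, an adaptor protein of the endoplasmic reticulum. STING then activates the kinase TBK1 and the transcription factor IRF3, which switch on type I interferon, and secreted interferon drives interferon-stimulated genes through its receptor on the same and neighbouring cells. PD-L1 is a surface ligand that restrains T cells through PD-1, and it is carried by both tumor cells and myeloid cells. The comparison addresses how the cells of an established pleural tumor respond to both agents given into the cavity.

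Reads recovered per library numbered from 16494845 to 19772837 in the PBS tumors and from 21023964 to 23764238 in the combination tumors. An FPKM of 1 was reached by 12274 to 12694 genes in each. Mitochondrially encoded genes took 1.33 to 1.85% of reads in PBS tumors and 1.27 to 1.39% in combination tumors. Genes on the Y chromosome took 0.00742% of reads in PBS library 1 and between 0.00252% and 0.00355% in the other 5 libraries, so that library stands apart on this measure. The content of the libraries was that of a mixed tumor. Krt8, a keratin of simple epithelia, lay between 83.2 and 105 FPKM, and the proliferation gene Mki67 differed by 0.09 ± 0.11 on the log2 scale (adjusted p = 0.752). Summed levels are taken over the members of a list with whole read counts, tested or not. This leaves 1 cytotoxic effector gene and 1 alternatively activated macrophage gene out of their sums. The summed level of the macrophage markers was 593 to 618 FPKM in PBS and 683 to 757 FPKM in the combination. Defining T cell genes were close to 0, with Cd3e, a chain of the T cell receptor complex, at no more than 0.301 FPKM in any of the 6 libraries. In such bulk samples fewer cells of a type and less RNA per cell cannot be told apart.

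Most interferon-stimulated genes rose in the combination tumors, with the chemokine gene Ccl5 and some monocyte genes, while fewer genes fell, among them the macrophage genes Marco and Arg1, the chemokine gene Cxcl2 and the hypoxia-induced Egln3. In all, 166 genes changed (1.33% of those tested). Of these, 121 rose (0.968%) and 45 fell (0.36%). Changes are differences of log2(FPKM + 1) with their standard errors, which understate the change of genes with low levels. They were tested with limma over all 12 tumor libraries, and the adjusted p is Benjamini-Hochberg over all genes tested, with a threshold of 0.05. The rises were the larger changes, with a median of 0.95 among the genes that rose and -0.49 among those that fell, against 0.01 over all genes. A difference above 1 was seen for 52 genes that rose, and one below -1 for 3 that fell. The groups did not overlap for any of the 166 genes, whereas over all genes tested the combination lay wholly above PBS for 11.4% and wholly below for 10.1%. An unadjusted p under 0.05 was reached by 1801 of the 12498 genes tested. Counts of list members given below stand against these shares over all genes. With 3 libraries on each side the smallest p an exact permutation test allows is 0.1, so each call rests on the spread estimated over all genes and groups. With each of the 6 libraries left out in turn between 41 and 149 genes changed, the fewest without combination library 1, and 48, 59 and 52 changed without PBS library 2, combination library 2 and combination library 3. The calls of 38 genes, 32 that rose and 6 that fell, held in every one of these omissions. The number of decreases depended on which scaling was used. With the libraries rescaled to the same upper quartile 141 genes rose and 54 fell, and scaling to total recovered reads gave 168 changed genes. Total FPKM was 245931 to 262764 in these 6 libraries and 396188 in anti-PD-L1 library 2, which is in the same fit. With the libraries rescaled to the same total FPKM, 46 genes rose and 3 fell. Of the named genes that fell, Marco and Mir6400 kept their calls under that scaling, while the others described below did not, with adjusted p from 0.0521 for Rdh12 to 0.643 for Idi1. Of the named genes that rose, Ifit1, H2-Q6, H2-Q7, Lgals9, Fcgr1, Ms4a7, Plac8, C3ar1 and Ch25h lost their calls under it, with adjusted p from 0.0530 for Ifit1 to 0.500 for C3ar1.

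**Figure D1:**
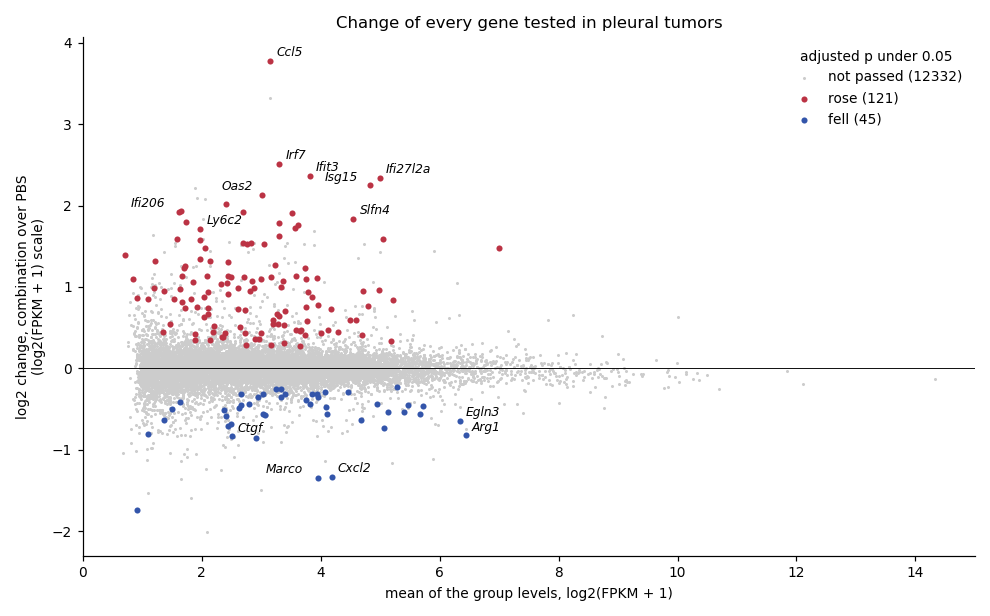
Log2 change of each gene tested, combination over PBS tumors (y axis), against its mean level over the 6 libraries as log2(FPKM + 1) (x axis), with the 121 genes that rose and the 45 that fell coloured. The genes that rose reach 3.78 for Ccl5, whereas 3 of those that fell lie below -1.

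Ccl5 encodes a chemokine that attracts T cells, monocytes and natural killer cells, and it showed the largest rise of the genes chosen. Ccl5 (chromosome 11, 83525778 to 83530518, GRCm38) was at 1.57, 1.84 and 0.834 FPKM in the 3 PBS tumors and at 33.0, 27.1 and 35.1 FPKM in the 3 combination tumors. All 3 combination tumors were high and the groups did not overlap. The mean was 22.5-fold higher, with a log2 difference of 3.78 ± 0.36 (adjusted p = 0.00243).

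Among the interferon-stimulated genes, 43 of 50 rose and none fell, where 0.968% of all genes tested rose. The median log2 difference of the list was 1.31, against 0.01 over all genes, and all 50 members had a difference above 0. Of the members that rose, 5 (Ifit3b, Apol9a, Ifi213, Ifit1bl1 and Mx2) met the minimum level only through the combination tumors, where they are high. Summed over the list, the level was 302.7 to 360.4 FPKM in the PBS tumors and 906 to 1035 FPKM in the combination tumors. The number of members that rose depended on single libraries, at 19 without PBS library 2, 18 without combination library 1, 22 without combination library 2 and 21 without combination library 3. It was 48 with only the 6 libraries compared in the limma fit, and limma-voom on recovered reads called 49. An unadjusted p under 0.05 was reached by all 50 in the fit over 12 libraries (1801 of 12498 over all genes). Irf7, the transcription factor that amplifies type I interferon production, was at 3.59, 2.59 and 3.22 FPKM in PBS and at 24.6, 21.2 and 21.9 FPKM in the combination. The combination values were close to each other and far above every PBS value, with a log2 difference of 2.51 ± 0.29 (adjusted p = 0.00349). Irf7 overlaps Phrf1 on the opposite strand, and reads of the overlap cannot be assigned because the libraries do not mark strand.

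Of 9 Ifit genes tested, whose products act against viral RNA, 5 rose and none fell, with differences from -0.50 to 2.37. Ifit3, an adaptor of the antiviral IFIT complex, was at 7.20, 3.69 and 4.93 FPKM in PBS and at 33.6, 29.3 and 28.9 FPKM in the combination, a difference of 2.37 ± 0.34 (adjusted p = 0.00687). Its near-identical copy Ifit3b rose from 0.793, 0.546 and 0.454 FPKM to 5.72, 5.24 and 4.35 FPKM (1.93 ± 0.22, adjusted p = 0.00349), and reads shared by the pair may have been split between them. Ifit3b was tested only because of its level in the combination tumors. Every combination value of both genes was above every PBS value. Ifit1, which binds the cap of foreign RNA, differed by 1.76 ± 0.37 (adjusted p = 0.0472). That call was lost without any 1 of 5 libraries, all but PBS library 1, with an adjusted p of up to 0.165.

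The oligoadenylate synthetase family includes sensors of double-stranded RNA that activate RNase L. Of 8 genes with Oas symbols tested 7 rose, where 0.968% of all genes tested rose. These include the synthetase-like Oasl1 and Oasl2 and also Oas1b, annotated as a polymorphic pseudogene, so not all 8 are active synthetases. Oas2 was at 2.80, 2.51 and 3.17 FPKM in PBS and at 17.6, 15.2 and 14.6 FPKM in the combination (2.13 ± 0.21, adjusted p = 0.00268). Oas3 showed a difference of 2.02 ± 0.28 (adjusted p = 0.00668) and a mean 5.93-fold higher. The groups did not overlap for either gene, and none of the 8 Oas genes fell. Of the Ifi200 genes, whose products bind DNA and take part in innate sensing, 6 of 8 rose. Ifi206 was at 0.711, 0.476 and 0.542 FPKM in PBS and at 5.19, 4.93 and 4.82 FPKM in the combination (1.93 ± 0.23, adjusted p = 0.00349), and it too met the minimum level only through the combination. Members of both families resemble each other in sequence, so the share of reads given to each is uncertain.

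Other strongly raised interferon genes act in ubiquitin-like conjugation, at membranes and in growth arrest. Isg15, a ubiquitin-like modifier, was at 13.7, 9.42 and 13.1 FPKM in PBS and at 69.4, 49.8 and 63.6 FPKM in the combination. All combination values were above all PBS values (2.25 ± 0.35, adjusted p = 0.0125), and the call was lost without PBS library 2, combination library 1 or combination library 3, with an adjusted p of up to 0.068. Ifi27l2a, a small interferon-induced membrane protein, was at 8.66, 15.8 and 15.5 FPKM in PBS and at 81.1, 63.5 and 64.3 FPKM in the combination. It had the smallest adjusted p of the chosen genes (2.34 ± 0.21, adjusted p = 0.00207). Apol9b, an apolipoprotein L family gene, rose from 2.57, 1.85 and 2.55 FPKM to 12.8, 10.1 and 11.7 FPKM (1.92 ± 0.27, adjusted p = 0.00685). Slfn4, a myeloid member of the Schlafen family, rose from 10.4, 9.19 and 14.6 FPKM to 53.7, 34.1 and 41.8 FPKM (1.84 ± 0.22, adjusted p = 0.00349), and 5 of the 8 Schlafen genes tested rose. Rtp4, an interferon-induced chaperone of receptor traffic, was higher by 1.91 ± 0.31 (adjusted p = 0.0151). It overlaps Masp1 on the opposite strand, and its call was lost without PBS library 2 or any 1 of the 3 combination libraries (adjusted p up to 0.0769).

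Among the 7 interferon-stimulated genes that did not pass were Ifi204, Rsad2, Stat2, Herc6, Isg20 and Eif2ak2. Rsad2, an enzyme that makes an antiviral nucleotide, was at 5.07, 3.56 and 4.32 FPKM in PBS and at 11.3, 10.4 and 10.0 FPKM in the combination. Its groups did not overlap either, and its difference was 1.13 ± 0.26 (adjusted p = 0.0650). All 7 had differences above 0 without passing over all genes.

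**Figure D2:**
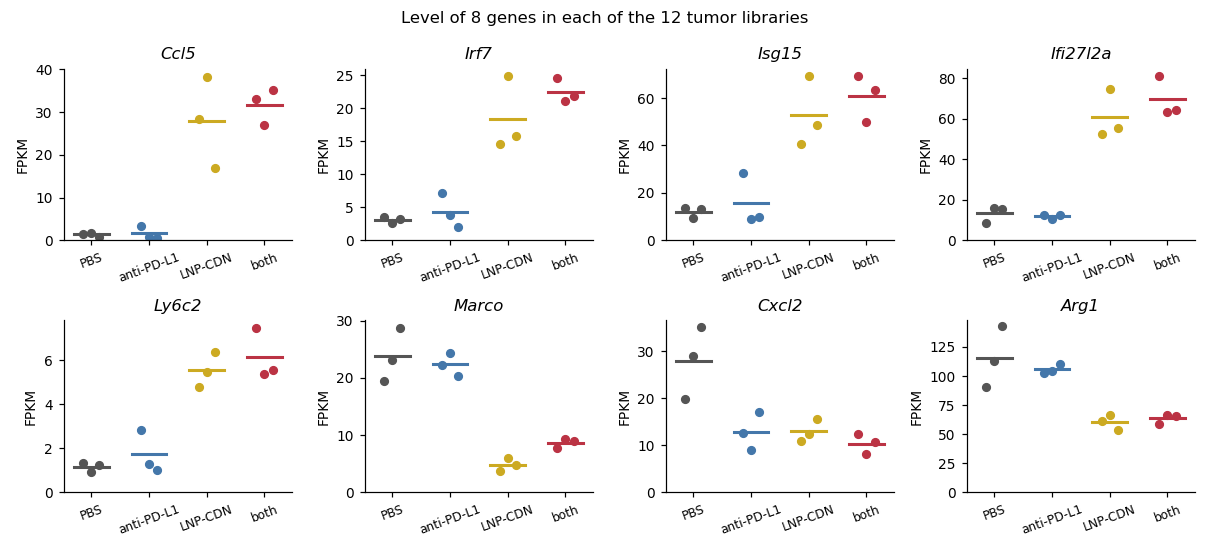
FPKM (y axis, linear and starting at 0) of 8 genes in the 12 tumor libraries, grouped by treatment (x axis), with a point for each library and a bar for the mean of 3. For Ccl5, Irf7, Isg15, Ifi27l2a and Ly6c2 the combination and LNP-CDN libraries are high, and for Marco they are low.

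The promoters of several of these genes carry the core of the interferon-stimulated response element, the DNA site bound by interferon-activated transcription factors. Promoters, taken as the 250 bases before and 50 bases after the start site in RefSeq on GRCm38.p6, were matched for 95 of the 121 genes that rose, 29 of the 45 that fell and 8870 of the 12498 tested. The core, searched on both strands as GAAA, any 2 bases and GAAA, stood in 30 of the 95 promoters of genes that rose (31.6%). It stood in 0 of the 29 promoters of genes that fell and in 286 of all 8870 (3.22%). Among interferon-stimulated genes 21 of 38 promoters held it (55.3%), and among genes that rose outside both interferon lists 12 of 62 did (19.4%). The gamma-activated site TTCNNNGAA was at 7.37% of promoters of genes that rose and 6.89% of all, and an NF-kB-like motif, GGGA and CC with any 4 bases between them, was at 15.8% and 26.5%; motifs may overlap each other. A match describes these letters only and is not a site shown to be bound. The stretches that hold the motif are shown for 5 of the genes with the largest rises, each read 5′ to 3′ on the strand of its gene, with the core or its reverse complement in capitals. They lie at chr19:34583313-34583476 (plus strand, Ifit3), chr4:156200815-156200956 (minus strand, Isg15), chr5:120777665-120777794 (minus strand, Oas3), chr1:173491289-173491418 (minus strand, Ifi206) and chr15:77728975-77729110 (plus strand, Apol9b).
Ifit3: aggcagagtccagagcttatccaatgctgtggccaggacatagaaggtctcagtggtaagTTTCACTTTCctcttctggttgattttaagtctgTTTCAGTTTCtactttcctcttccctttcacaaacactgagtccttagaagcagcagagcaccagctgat
Isg15: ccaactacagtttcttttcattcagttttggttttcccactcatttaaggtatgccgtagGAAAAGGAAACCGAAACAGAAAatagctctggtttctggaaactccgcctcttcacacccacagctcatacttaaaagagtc
Oas3: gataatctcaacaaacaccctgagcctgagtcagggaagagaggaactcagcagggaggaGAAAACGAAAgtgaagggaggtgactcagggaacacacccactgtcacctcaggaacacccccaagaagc
Ifi206: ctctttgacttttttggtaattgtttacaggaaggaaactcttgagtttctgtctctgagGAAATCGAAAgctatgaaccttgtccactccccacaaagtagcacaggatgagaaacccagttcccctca
Apol9b: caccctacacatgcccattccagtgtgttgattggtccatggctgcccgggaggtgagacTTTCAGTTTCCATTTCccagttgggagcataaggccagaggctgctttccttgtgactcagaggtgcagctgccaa
Ifit3 holds 2 separate matches, and the matching stretch of Ifit3b was identical to it in every letter. Isg15 holds 3 overlapping matches in 1 run and Apol9b 2, while Oas3 and Ifi206 hold 1 each. The orientation differs, with the GAAA strand along the gene in Isg15, Oas3 and Ifi206 and against it in Ifit3 and Apol9b.

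None of 21 interferon-gamma response genes was called by limma, although 20 had a difference above 0, with a median of 1.26. The groups did not overlap for 17, where over all genes the combination lay wholly above PBS for 11.4%. Of the 21, 1 met the minimum level through 1 group only. An unadjusted p under 0.05 was reached by 17 of the 21 (1801 of 12498 over all genes), and limma-voom on recovered reads called 1. Gbp2, a guanylate-binding protein that attacks pathogen vacuoles, was at 60.1, 32.1 and 18.4 FPKM in PBS and at 82.8, 121 and 76.5 FPKM in the combination. The 3 PBS tumors themselves spread over a wide range for Gbp2, and the difference was 1.44 ± 0.54 (adjusted p = 0.245). With only the 6 libraries compared in the fit, 5 of the 21 passed. Cxcl9 and Cxcl10 encode interferon-induced chemokines for CXCR3-bearing T cells. Cxcl9 was at 11.6, 5.08 and 2.48 FPKM in PBS and at 14.5, 19.6 and 11.3 FPKM in the combination, with overlapping groups (1.29 ± 0.60, adjusted p = 0.353). Cxcl10 was at 7.77, 4.43 and 3.86 FPKM in PBS and at 17.2, 17.3 and 14.9 FPKM in the combination, without overlap (1.50 ± 0.41, adjusted p = 0.118). It passed with only the 6 libraries in the limma fit (adjusted p = 0.0184), where Cxcl9 did not (adjusted p = 0.249).

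MHC class I molecules present peptides to CD8 T cells. Of 22 genes of the class I and peptide loading list, 3 rose and none fell, where 0.968% of all genes tested rose. The groups did not overlap for 21, where over all genes the combination lay wholly above PBS for 11.4%. The median difference was 0.64. The summed level was 1414 to 1888 FPKM in PBS and 2399 to 2544 FPKM in the combination. H2-Q6, a nonclassical class I gene, was at 7.89, 7.18 and 7.94 FPKM in PBS and at 22.1, 18.2 and 18.3 FPKM in the combination (1.24 ± 0.20, adjusted p = 0.0153). H2-T24, another nonclassical gene, was at 4.73, 3.67 and 3.82 FPKM in PBS and at 9.04, 8.39 and 8.95 FPKM in the combination (0.95 ± 0.13, adjusted p = 0.00579). Both genes had combination values that were tight and all above PBS, and H2-Q7 rose by 0.99 ± 0.21 (adjusted p = 0.0474). The call of H2-T24 held with each library left out. That of H2-Q6 was lost without PBS library 2 or any combination library (adjusted p up to 0.0769), and that of H2-Q7 in all 6 omissions (up to 0.172). These genes belong to a family of close copies, so reads may be shared. B2m, the light chain common to class I molecules, was at 956, 841 and 684 FPKM in PBS and at 1325, 1262 and 1218 FPKM in the combination, which did not pass (0.63 ± 0.22, adjusted p = 0.206). The number of class I genes that rose was 11 with only the 6 libraries in the fit. Of 6 MHC class II genes none was called by limma or limma-voom and none had an unadjusted p under 0.05, with a median of -0.05.

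Lymphocyte genes were at low levels in these tumors. Only 3 of 22 T cell markers passed the minimum level, and Cd8a, Cd4, Foxp3, Ncr1 and Pdcd1 were below it. Il7r, the interleukin-7 receptor chain carried by T cells and innate lymphoid cells, rose from 0.904, 1.10 and 1.43 FPKM to 3.53, 2.49 and 2.67 FPKM (0.86 ± 0.13, adjusted p = 0.0101). The groups did not overlap, and the call was lost without PBS library 2 or combination library 1 (adjusted p up to 0.0576). Summed T cell markers were at 7.43 to 10.5 FPKM in PBS and at 12.4 to 14.6 FPKM in the combination, and summed natural killer markers at 15.0 to 18.4 and 10.3 to 11.7 FPKM. Of 7 cytotoxic effector genes none was called by limma or limma-voom and 4 had an unadjusted p under 0.05 (1801 of 12498 over all genes). Of the 7, 3 (Gzma, Prf1 and Nkg7) met the minimum level only through the combination, so their groups could not overlap. The summed level was 15.4 to 19.9 FPKM in PBS and 28.9 to 33.0 FPKM in the combination. Gzmb, a granule protease of killer cells, was at 1.74, 1.12 and 0.967 FPKM in PBS and at 3.55, 4.38 and 3.78 FPKM in the combination (1.12 ± 0.51, adjusted p = 0.350). Its combination values were higher in all 3 tumors without passing this test. Gzmb passed with only the 6 libraries compared in the limma fit (adjusted p = 0.0125), the 1 member of the 7 that did.

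The targets of the agents did not pass in the fit over all 12 tumor libraries either. Cd274, which encodes PD-L1, was at 9.83, 8.48 and 8.76 FPKM in PBS and at 14.4, 14.1 and 13.6 FPKM in the combination (0.59 ± 0.24, adjusted p = 0.289). Tmem173, which encodes STING, was at 18.1, 20.5 and 20.6 FPKM and at 24.5, 27.8 and 22.4 FPKM (0.32 ± 0.10, adjusted p = 0.156). For both genes all 3 combination values were above all 3 PBS values. With only the 6 libraries compared in the limma fit, Cd274 passed (adjusted p = 0.00834) and Tmem173 did not (adjusted p = 0.173). None of 13 genes of STING and type I interferon signaling was called by limma or limma-voom, with a median of 0.02. An unadjusted p under 0.05 was reached by 3 of the 13, against 1801 of 12498 over all genes. Among 10 checkpoint genes 1 rose (0.968% of all genes tested did), Lgals9, a galectin that binds TIM-3, from 19.1, 21.0 and 20.7 FPKM to 38.6, 31.9 and 35.5 FPKM (0.77 ± 0.13, adjusted p = 0.0169). That call was lost without PBS library 1 or 2 or combination library 1 or 3 (adjusted p up to 0.0840).

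Of 12 monocyte markers 3 rose (0.968% of all genes tested did), none fell and 9 did not pass, 3 of which had differences below 0. The lowest was F13a1, a clotting factor subunit made by monocytes and macrophages, at 21.7, 27.1 and 29.1 FPKM in PBS and 15.7, 11.8 and 16.2 FPKM in the combination (-0.79 ± 0.20, adjusted p = 0.0914). The summed level of the list was 152 to 160 FPKM in PBS and 223 to 264 FPKM in the combination. Its members with the highest levels were Ly6a, Vcan and F13a1, none of which was called. Ly6c2, the surface antigen of inflammatory monocytes, was at 1.31, 0.910 and 1.25 FPKM in PBS and at 7.47, 5.36 and 5.55 FPKM in the combination (1.72 ± 0.21, adjusted p = 0.00349). Ms4a4c, a membrane protein of the MS4A family found on monocytes, was at 4.53, 3.53 and 3.48 FPKM in PBS and at 14.5, 12.9 and 11.5 FPKM in the combination (1.53 ± 0.22, adjusted p = 0.00685). Both genes were several-fold higher in all 3 combination tumors. Plac8, a cysteine-rich protein of myeloid cells, rose by 1.11 ± 0.23 (adjusted p = 0.0446), and its call was lost in all 6 omissions (adjusted p up to 0.175).

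Of 16 general macrophage markers 2 rose (0.968% of all genes tested did) and none fell, with a median of 0.26. Fcgr1, the high-affinity receptor for IgG and itself interferon-inducible, was at 7.47, 8.89 and 8.29 FPKM in PBS and at 20.3, 18.7 and 17.3 FPKM in the combination. All 3 combination values were far above the PBS values (1.10 ± 0.20, adjusted p = 0.0208). Ms4a7, a marker of mature macrophages, rose by 0.51 ± 0.11 (adjusted p = 0.0482), and Adgre1, which encodes F4/80, differed by 0.36 ± 0.16 (adjusted p = 0.331). The calls of Fcgr1 and Ms4a7 were each lost in all 6 omissions (adjusted p up to 0.101 and 0.176). C3ar1, the receptor for the complement fragment C3a, rose from 12.5, 14.6 and 14.3 FPKM to 19.2, 19.7 and 19.5 FPKM (0.47 ± 0.09, adjusted p = 0.0306, lost in all 6 omissions with an adjusted p of up to 0.114).

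Marco was among the genes that fell furthest. It encodes a scavenger receptor with a collagenous stalk, carried by alveolar and serous cavity macrophages. Marco (chromosome 1, 120474538 to 120505024) was at 19.5, 23.2 and 28.8 FPKM in PBS and at 7.73, 9.39 and 8.99 FPKM in the combination. All 3 combination tumors were low, the PBS mean was 2.73-fold higher, and the log2 difference of -1.34 ± 0.15 (adjusted p = 0.00349) held with each library left out. Arg1, the arginine-consuming enzyme of alternatively activated macrophages, was at 90.3, 113 and 143 FPKM in PBS and at 59.2, 66.2 and 66.1 FPKM in the combination (-0.82 ± 0.14, adjusted p = 0.0175). The groups did not overlap, and the call was lost without PBS library 2 or any combination library (adjusted p up to 0.0846).

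Arg1 was the 1 member called by limma among 9 alternatively activated macrophage genes, whose median was -0.46 and whose summed level was 186 to 286 FPKM in PBS and 148 to 157 FPKM in the combination. Of the 9, 5 had an unadjusted p under 0.05 (1801 of 12498 over all genes), and limma-voom called 2. Mrc1, the mannose receptor, differed by -0.29 ± 0.22 (adjusted p = 0.597). Cd163, the hemoglobin scavenger receptor, was at 4.99, 7.12 and 10.6 FPKM in PBS and at 3.91, 2.12 and 2.89 FPKM in the combination (-1.08 ± 0.27, adjusted p = 0.0814). It passed with limma-voom (adjusted p = 0.0384) and with limma at the same total FPKM (adjusted p = 0.0433). With only the 6 libraries in the limma fit it did not (adjusted p = 0.115). Lyve1, a hyaluronan receptor of lymphatic vessels and resident macrophages, was at 6.14, 13.1 and 18.9 FPKM and at 4.39, 2.09 and 4.30 FPKM (-1.50 ± 0.40, adjusted p = 0.108). For both genes the PBS tumors differed widely from each other, with library 1 lowest and library 3 highest. Alox15, a lipoxygenase of resident serous cavity macrophages, had the same order, at 2.01, 7.86 and 15.7 FPKM in PBS and at 1.05, 0.563 and 1.12 FPKM in the combination (-2.01 ± 0.58, adjusted p = 0.133). The summed serous cavity macrophage markers spanned 24.02 to 61.1 FPKM in PBS and 15.8 to 22.1 FPKM in the combination. The part of these cells in the fall of Marco was not tested. None of 9 classically activated macrophage genes was called by limma and limma-voom called 1, with Nos2, the inducible nitric oxide synthase, at -0.09 (adjusted p = 0.916). Of the 9, 2 had an unadjusted p under 0.05 (1801 of 12498 over all genes).

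Cxcl2 fell, the 1 gene called by limma of 7 neutrophil chemokine and receptor genes (0.36% of all genes tested fell). It encodes a chemokine for CXCR2-bearing neutrophils and was at 19.8, 29.1 and 35.2 FPKM in PBS and at 12.3, 8.18 and 10.6 FPKM in the combination. All combination values were below all PBS values, and the difference was -1.33 ± 0.24 (adjusted p = 0.0238). Leaving out any 1 library other than PBS library 1 ended the call, with an adjusted p of up to 0.106. Under rescaling to the same total FPKM its adjusted p was 0.0707. The 7 genes had a median of -0.77 and a summed level of 85.2 to 165 FPKM in PBS and 47.9 to 64.1 FPKM in the combination. Of the 7, 6 had an unadjusted p under 0.05 (1801 of 12498 over all genes), and limma-voom on recovered reads called 4. Cxcl1, a chemokine for the same receptor, was at 34.2, 55.1 and 76.5 FPKM in PBS and at 25.6, 20.5 and 22.8 FPKM in the combination (-1.16 ± 0.30, adjusted p = 0.0957). The neutrophil markers themselves overlapped in sum, at 137 to 199 and 112 to 174 FPKM. One of 11 was called, Mmp8, the neutrophil collagenase, which rose from 2.19, 2.10 and 1.96 FPKM to 6.79, 3.66 and 4.61 FPKM (0.93 ± 0.17, adjusted p = 0.0239). It was lost in every omission but that of combination library 2 (adjusted p up to 0.0938). S100a8, an abundant neutrophil granule gene, differed by -0.47 (adjusted p = 0.394).

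Of 19 glycolysis and hypoxia genes 2 fell and 17 did not pass, with a median of -0.22. Egln3, an oxygen-sensing prolyl hydroxylase that is itself induced when oxygen is low, was at 101, 98.0 and 103 FPKM in PBS and at 62.6, 63.9 and 65.4 FPKM in the combination. The 3 values of each group were within a few FPKM of each other, and the difference was -0.64 ± 0.09 (adjusted p = 0.00685). Pdk1, a mitochondrial kinase that inhibits pyruvate dehydrogenase, was at 19.8, 20.2 and 19.8 FPKM and at 13.1, 13.5 and 12.9 FPKM (-0.56 ± 0.08, adjusted p = 0.00668). Both calls held with each library left out and both were lost under rescaling to the same total FPKM, with adjusted p of 0.590 for Egln3 and 0.586 for Pdk1. That rescaling was applied to all 12 tumor libraries of the fit. With only the 6 libraries compared in the limma fit and no rescaling, both passed (adjusted p = 0.00275 and 0.00312). Adm, which encodes adrenomedullin, differed by -0.68 ± 0.21 (adjusted p = 0.162), and Slc2a1, a glucose transporter, by -0.48 ± 0.15 (adjusted p = 0.156). Ddit4, a stress-induced inhibitor of mTOR, fell from 42.5, 45.0 and 38.4 FPKM to 28.5, 19.8 and 27.0 FPKM (-0.73 ± 0.13, adjusted p = 0.0183). That call was lost without PBS library 1 or 2 or combination library 3 (adjusted p up to 0.0907). Arrdc2, an arrestin-domain gene, fell from 5.40, 6.08 and 4.92 FPKM to 3.26, 3.10 and 3.55 FPKM (-0.59 ± 0.11, adjusted p = 0.0320, up to 0.139 and lost in every omission but that of PBS library 3).

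Among 11 sterol genes 2 fell and 1 rose, with a median of -0.30. The 2 that fell make cholesterol precursors. Idi1, an isomerase of the isoprenoid pathway, went from 9.42, 8.56 and 9.58 FPKM to 5.20, 6.78 and 5.71 FPKM (-0.57 ± 0.12, adjusted p = 0.0446), and Lss, lanosterol synthase, from 5.32, 6.39 and 7.17 FPKM to 3.96, 4.21 and 4.32 FPKM (-0.49 ± 0.09, adjusted p = 0.0208). The 1 that rose, Ch25h, makes 25-hydroxycholesterol, an antiviral oxysterol that restrains sterol synthesis, and is interferon-inducible. It was at 4.36, 3.31 and 4.11 FPKM in PBS and at 8.39, 12.02 and 7.96 FPKM in the combination (1.07 ± 0.19, adjusted p = 0.0208). The groups did not overlap for any of the 3. The call of Idi1 was lost in all 6 omissions (adjusted p up to 0.178), and those of Lss and Ch25h without PBS library 2 or any combination library (up to 0.102 and 0.101).

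Of 14 matrix and TGF-beta genes 1 rose and 1 fell. Mmp13, a collagenase, rose from 1.83, 1.26 and 1.32 FPKM to 5.97, 4.81 and 4.92 FPKM (1.34 ± 0.23, adjusted p = 0.0184). Ctgf, a matrix protein induced by TGF-beta and YAP, fell from 5.46, 6.41 and 7.82 FPKM to 3.79, 2.68 and 3.22 FPKM (-0.83 ± 0.16, adjusted p = 0.0276). Col1a1, the main fibrillar collagen chain, differed by 0.05 ± 0.22 (adjusted p = 0.947). None of the fibroblast (16 tested), endothelial (13) or mesothelial (5) markers was called by limma or limma-voom. Of them 1, 2 and 1 had an unadjusted p under 0.05 (1801 of 12498 over all genes). The calls of Mmp13 and Ctgf were lost in every omission but that of PBS library 1 (adjusted p up to 0.0897 and 0.114). Rdh12, a retinal-reducing dehydrogenase, fell from 1.29, 1.82 and 2.43 FPKM to 0.653, 0.608 and 0.583 FPKM (-0.80 ± 0.14, adjusted p = 0.0208), with the same omissions ending the call (up to 0.0938). Rdh12 met the minimum level only through the PBS tumors. Itga10, a collagen-binding integrin chain, fell from 2.41, 2.22 and 1.98 FPKM to 1.09, 0.895 and 1.20 FPKM (-0.64 ± 0.11, adjusted p = 0.0208), a call that held only without PBS library 3 (up to 0.0978). Ms4a4a, an MS4A gene of macrophages, fell by 0.63 on the log2 scale (adjusted p = 0.0482, up to 0.159 and held only without combination library 1). The most negative difference among the genes called, -1.74 ± 0.27 (adjusted p = 0.0118), was that of the microRNA gene Mir6400, which rested on 9, 3 and 3 reads in PBS against 0 in each combination library. This is at least 6.36-fold lower against a floor of 3 reads over the group. Mir6400 lies inside Decr1 on the same strand, so its reads may be those of Decr1, and it also met the minimum level only through the PBS libraries. The call was lost without combination library 1 or 3 (adjusted p up to 0.0591).

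Markers of normal tissue beside the tumor moved with single libraries. The summed skeletal muscle markers were at 18.7, 35.3 and 18.9 FPKM in PBS and at 177, 32.1 and 74.5 FPKM in the combination, so that combination library 1 was high, library 3 intermediate and library 2 within the PBS range. None of the 9 passed with limma or limma-voom and 1 had an unadjusted p under 0.05, with Acta1, the muscle actin, at 3.32 ± 1.41 (adjusted p = 0.308). Summed adipocyte markers were at 14.2 to 20.4 FPKM in PBS and at 18.05 to 33.9 FPKM in the combination. Of the 4 adipocyte markers tested 1 rose, Car3, a carbonic anhydrase abundant in fat and also in muscle, from 0.816, 0.726 and 1.83 FPKM to 5.29, 3.30 and 3.24 FPKM (1.23 ± 0.24, adjusted p = 0.0296). The part of muscle or fat tissue in that rise was not tested, and the call was lost in every omission but that of PBS library 3 (adjusted p up to 0.126). The order of the combination libraries was the same for the summed interferon-stimulated genes, at 1035, 906 and 932 FPKM, and the part of muscle tissue in those values was not tested.

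**Figure D3:**
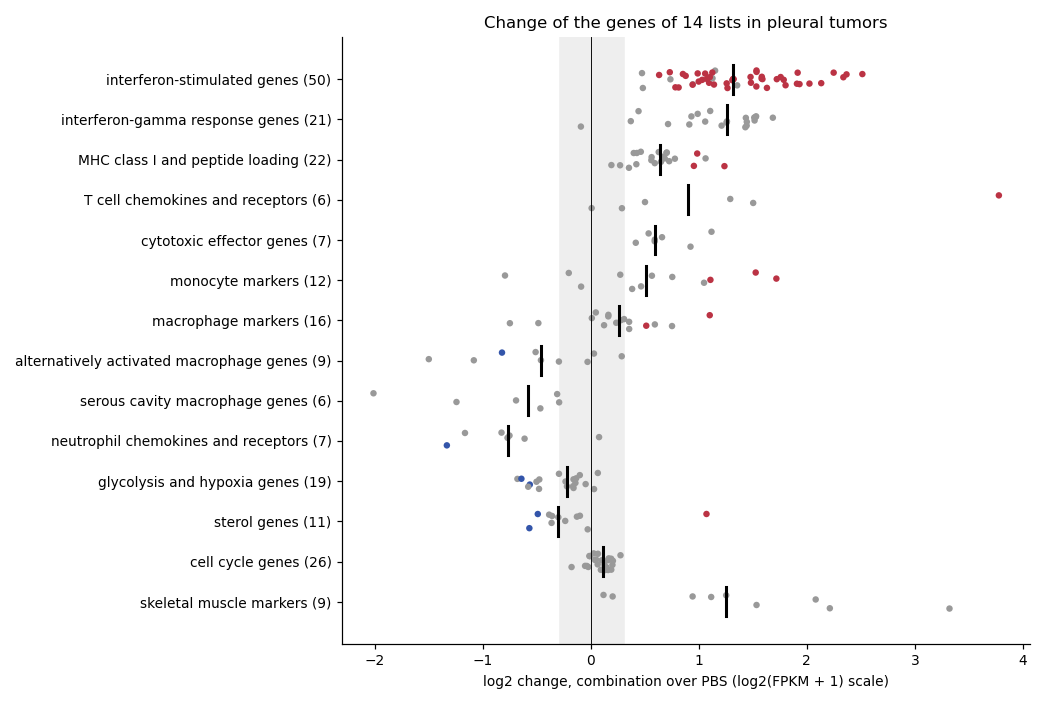
Log2 change, combination over PBS tumors (x axis), of each tested member of 14 gene lists (y axis), red where the gene rose, blue where it fell and grey where it did not pass. Black bars mark list medians, 1.31 for interferon-stimulated genes and -0.77 for neutrophil chemokines and receptors, and the grey band spans the 5th to the 95th percentile of all genes.

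Against LNP-CDN alone the combination tumors showed no gene past the threshold. None of 12485 genes passed with limma (0%), 648 had an unadjusted p under 0.05, the smallest adjusted p was 0.875, and limma-voom on recovered reads called none either. Of the 50 interferon-stimulated genes 48 were above 0, with a median of 0.22, against -0.01 over all genes, and 1 had an unadjusted p under 0.05. Marco was at 3.67, 5.92 and 4.72 FPKM with LNP-CDN alone, below all 3 combination values, a difference of 0.76 ± 0.15 that did not pass over all genes. Ch25h was at 5.76, 4.83 and 4.90 FPKM with LNP-CDN alone, below the combination values, and differed by 0.75 ± 0.19 without passing. An adjusted p above the threshold does not show that the treatments act alike.

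Against anti-PD-L1 alone the combination tumors differed in 208 of 12497 genes (1.66%). Of these, 155 were higher (1.24%) and 53 lower (0.424%), or 115 and 4 with the libraries rescaled to the same total FPKM, and 35 of the 50 interferon-stimulated genes were higher. Ccl5 was at 3.46, 0.863 and 0.684 FPKM with anti-PD-L1 alone, all below the combination (3.76 ± 0.36, adjusted p = 0.00180). Ifi27l2a was at 12.6, 10.4 and 12.8 FPKM, likewise below (2.44 ± 0.21, adjusted p = 0.00137). Marco was at 22.3, 24.4 and 20.4 FPKM and Arg1 at 103, 104 and 110.3 FPKM, all above the combination (-1.27 ± 0.15, adjusted p = 0.00561, and -0.72 ± 0.14, adjusted p = 0.0307). Cxcl2, at 12.7, 9.05 and 17.1 FPKM with anti-PD-L1 alone, overlapped the combination values. Anti-PD-L1 library 2 stands apart from the other tumor libraries on the second principal component, with 1.08% of its reads on Gm23935. The Y-linked genes Ddx3y and Eif2s3y were among the genes lower in the combination (-2.11 and -1.49), and Y-linked genes took 0.00575 to 0.00743% of reads with anti-PD-L1. Ddx3y lay between 3.27 and 3.44 FPKM with anti-PD-L1 and between 0 and 0.00774 FPKM in the combination. In PBS it ranged from 0.02 to 3.55 FPKM. The source of these Y-linked differences was not tested, and they cannot be told apart from treatment here. With only the 6 libraries of this comparison in the fit 8 genes passed, and without combination library 1 14 did.

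The comparisons of each agent with PBS share the PBS tumors, so their values are given side by side. Ccl5 differed from PBS by 3.78 with both agents, by 3.53 with LNP-CDN and by 0.02 with anti-PD-L1. Irf7 differed by 2.51, 2.20 and 0.27, and Marco by -1.34 with both agents and -2.11 with LNP-CDN. Over the interferon-stimulated genes the median difference from PBS was 1.31 with both agents, 1.14 with LNP-CDN and 0.15 with anti-PD-L1. The summed level of that list was at 708, 967 and 808 FPKM with LNP-CDN and at 548, 308 and 253 FPKM with anti-PD-L1, where library 1 was above every PBS tumor. The alternatively activated macrophage genes summed to 146, 148 and 138 FPKM with LNP-CDN, below all PBS tumors, and to 195, 234 and 222 FPKM with anti-PD-L1, within their range. Summed skeletal muscle markers were also uneven with LNP-CDN, at 129, 22.98 and 279 FPKM.

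**Figure D4:**
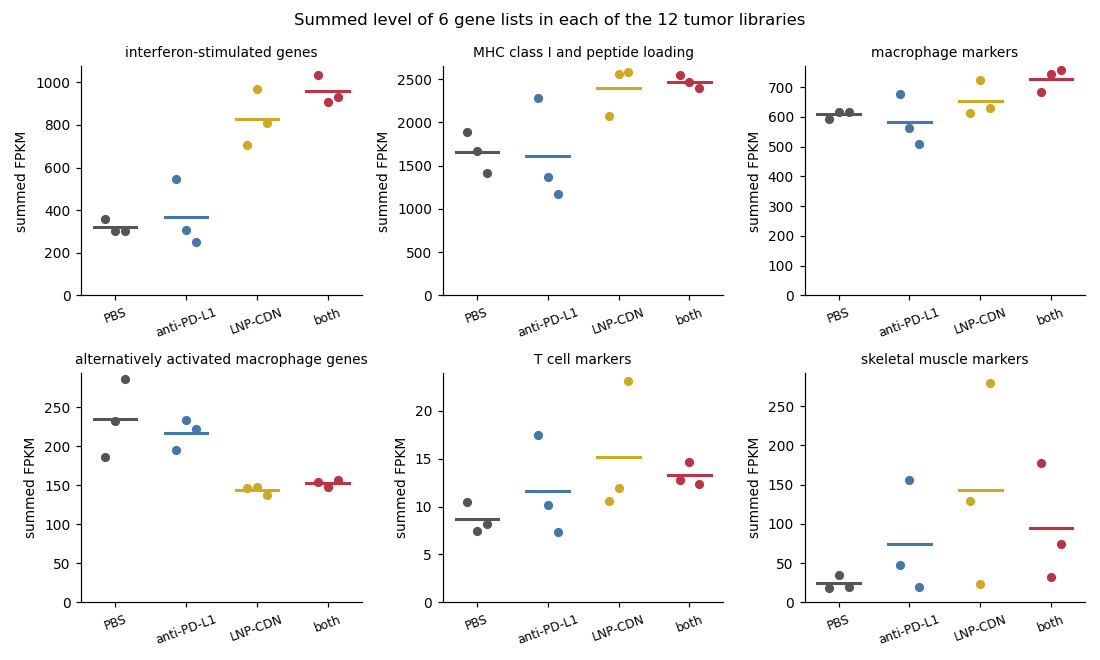
Summed FPKM (y axis) of 6 gene lists in each of the 12 tumor libraries, grouped by treatment (x axis), with a point for each library and a bar for the mean. Interferon-stimulated genes sum to 906 to 1035 in the combination and 302.7 to 360.4 in PBS, whereas skeletal muscle markers vary within groups.

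The same treatments were measured in pleural fluid cells, and the effect of the combination over PBS differed between tumor and fluid in 2325 of 14395 genes (16.2%; 8.52% more positive and 7.63% more negative in tumor), by the interaction term of a limma fit over all 24 libraries. Rescaled to the same total FPKM, 421 were more positive and 193 more negative. Of the 166 genes called in tumors, 18 had a difference significantly more positive in tumor and 47 one significantly more negative. Among the 50 interferon-stimulated genes the tumor difference was smaller for 19 and larger for 1, with a fluid median of 1.67 against 1.31 in tumors. Both are differences of log2(FPKM + 1), which understate the change where levels are low. The part of this scale in the gaps between tumor and fluid was not tested. Ifit3 differed by 2.37 in tumors and 4.40 in fluid (-2.03 ± 0.52, adjusted p = 0.0123). Oas2, the 1 that was larger, differed by 2.13 in tumors and 1.01 in fluid (1.12 ± 0.26, adjusted p = 0.00709). Irf7 differed by 2.51 and 2.81, a gap that did not pass (-0.30, adjusted p = 0.670).

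Genes outside the interferon list also differed between tumor and fluid. Marco differed by -1.34 in tumors and 0.69 in fluid (-2.03 ± 0.51, adjusted p = 0.0112). Egln3 differed by -0.64 in tumors and -1.70 in fluid (1.06 ± 0.28, adjusted p = 0.0143), and Rdh12 by -0.80 and -3.19 (2.39 ± 0.32, adjusted p = 0.000112). Lyve1, which did not pass in tumors at -1.50, was at -4.98 in fluid (3.48 ± 0.62, adjusted p = 0.00113). Among genes that rose in tumors, Ly6c2 differed by 1.72 in tumors and 3.42 in fluid (-1.71 ± 0.41, adjusted p = 0.00813), whereas Il7r differed by 0.86 in tumors and -0.19 in fluid (1.05 ± 0.23, adjusted p = 0.00497).

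**Figure D5:**
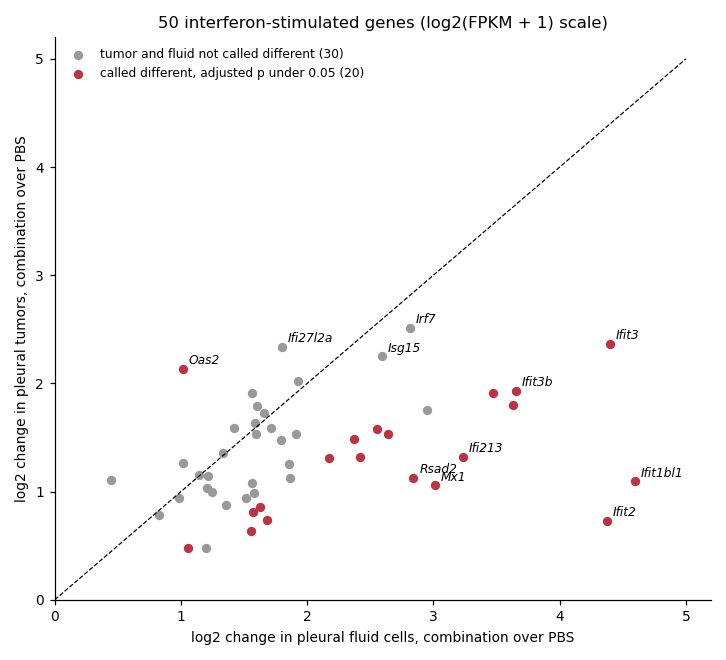
Log2 change, on the log2(FPKM + 1) scale, of the 50 interferon-stimulated genes with the combination over PBS in pleural tumors and in pleural fluid cells, with a dashed line of equal change. Red points are the 20 genes whose changes differ between tumor and fluid, 19 of them smaller in tumors and 1, Oas2, larger.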

How the data were processed

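RNA from 24 mouse libraries, 12 of pleural tumor cells and 12 of pleural fluid cells, was enriched by poly-A selection, per the labels' protocols, and the kit they name does not record strand. Each library's group was taken from its title. The deposited table gives 1 FPKM value per gene and library, made by the authors. The tools listed in the submitters' processing notes are fastp, STAR, featureCounts and DESeq2 and the genome is mm9, with neither versions nor roles. The table's coordinates match GRCm38 and are given as such. Each FPKM times gene length and a library factor was taken as a read number, and in each library 99.92 to 99.97% of these lay within 0.01 of a whole number, which gives the depth. Genes without whole reads in the tissue (19 in tumors, 9 in fluid), Ifnb1, Ifng, Vegfa and Pecam1 among them in tumors, were left out, and 27 symbols stored as dates were restored from gene IDs.

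Tests used log2(FPKM + 1), a minimum FPKM of 1 in at least 3 libraries of the groups compared, and limma 3.58.1 in R 4.3.3 with moderated variances and a trend. Treatments were compared in 1 fit over 12 tumor libraries, and tumor with fluid in 1 fit over 24. P-values are two-sided and Benjamini-Hochberg adjusted over all genes tested. The script was tested on simulated data. Python 3.11.15 with pandas 2.3.3 handled the tables and matplotlib 3.10.9 drew the plots.

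Members, gene lists and the rule for named genes were chosen with earlier results of these data known. The rule takes up to 12 genes with the largest rises and up to 12 with the largest decreases among called genes whose groups do not overlap and whose mean FPKM is at least 1 in the higher group. It adds up to 4 called members of each list, a core list whatever its result, and up to 5 genes each way from the other comparisons. Predicted genes, ribosomal protein genes and mitochondrially encoded genes are left out. Members named beside these with values (Cxcl1, Alox15, Gbp2, Rsad2, Adm, Slc2a1, B2m, Acta1, F13a1, Krt8) were chosen after their values were seen. No replicate pair looked like a duplicate, since the chi-square of their reads ran from 5.22 to 74.4 per degree of freedom. Each library is 1 mouse, per the series' design text. Alternatives were a pseudocount of 0.1, other filters and scalings, only the libraries compared, a replicate block, leaving out X and Y genes, limma-voom, and each library left out. Keeping the genes without whole reads and scaling to total reads were added after seeing the data. Erythroid genes other than the 1 tested were not used here.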

Additional observations from a re-analysis of the deposited data

Results flagged for a closer look

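The effect of the combination over PBS differed between tumors and pleural fluid, by the interaction term of the limma fit with Benjamini-Hochberg adjustment, in 2325 genes. In each value the fluid difference is subtracted from the tumor difference. The values furthest above 0 were those of Alas2, the first enzyme of heme synthesis in red cells (3.98), Lyve1 (3.48), the imprinted RNA gene H19 (3.21), the fibronectin gene Fn1 (2.82) and Cd79a, a chain of the B cell receptor (2.61). Alas2 differed by -0.82 in tumors and -4.80 in fluid, and H19 by 0.49 and -2.72. The values furthest below 0 were those of the interferon-induced Ifit2 (-3.64) and Ifit1bl1 (-3.50), the glycoprotein gene Gpnmb of lipid-laden macrophages (-3.44), BC021767 (-2.99) and the metalloproteinase gene Mmp27 (-2.62). Ifit2 differed by 0.73 in tumors and 4.37 in fluid, whereas Gpnmb differed by -0.01 and 3.44.

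Of the named genes that rose in tumors, the interaction was -2.03 for Ifit3, -1.72 for Ifit3b, -1.55 for Apol9b, -1.18 for Ifi206, -1.71 for Ly6c2, -1.31 for Ms4a7, -1.07 for H2-T24, -1.05 for H2-Q6, -0.64 for C3ar1, 1.12 for Oas2, 1.05 for Il7r and 1.27 for Car3. Of those that fell in tumors, it was -2.03 for Marco, -1.72 for Mir6400, -0.78 for Arrdc2, -0.52 for Itga10, -0.48 for Pdk1, 1.06 for Egln3 and 2.39 for Rdh12. Cd163 (2.00) and Mki67 (0.84), which were not called in tumors, also differed. Marco and Arrdc2 had differences below 0 in tumors and above 0 in fluid. The interaction values are on the log2(FPKM + 1) scale, which understates change at low levels. Mean Ifi206 went from 0.576 to 4.98 FPKM in tumors and from 9.64 to 90.0 FPKM in fluid. Mean Ifit3b went from 0.598 to 5.10 FPKM in tumors and from 1.59 to 31.8 FPKM in fluid. The part of the scale in each interaction value was not tested.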

How the results depend on the processing

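Of the 42 named genes called, 14 kept their call under every alternative: Ccl5, Irf7, Ifit3, Ifi27l2a, Oas2, Oas3, Ifit3b, Ifi206, Apol9b, Slfn4, Marco, H2-T24, Ly6c2 and Ms4a4c. Over 952 values of named genes, 747 kept direction and call, 197 lost the call, 6 gained it and 2 reversed, both of Col1a1, at -0.14 without PBS library 1 and -0.11 without combination library 1 (its range with 1 library left out was -0.14 to 0.19). The 166 genes that changed in tumors became 52 with no filter, 49 with rescaling to the same total FPKM (46 higher and 3 lower, against 121 and 45), 274 with limma-voom on recovered reads (162 shared) and 41 to 149 with 1 library left out. Rescaling to the same upper quartile gave 195 (160 shared). Interferon-stimulated genes that rose numbered 18 with no filter, 27 with rescaling to the same total and 48 with only the libraries compared, and limma-voom called 49. The replicate block gave 109 (103 shared). Same-numbered combination and PBS libraries correlated at -0.12, -0.07 and 0.10 in their deviations, and not every library correlated best with its own number, so the numbers are not taken as pairs. Against LNP-CDN no filter gave 1 gene, and 0 were called with any library left out. Against anti-PD-L1 the 208 became 78 with no filter, 119 with the same total FPKM (115 higher and 4 lower, against 155 and 53), 8 with only the libraries compared, 107 with the replicate block, 328 with limma-voom and 14 to 336 with 1 library left out, the most without anti-PD-L1 library 1. The 2325 genes that differed between tumor and fluid became 614 with the same total FPKM (421 larger and 193 smaller, against 1227 and 1098) and 1614 to 2257 with 1 library left out. The cause of these shifts was not tested. With 3 mice a group, a difference that did not pass is not shown to be absent.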

Other observations

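Of the 166 genes called in tumors, 100 belonged to none of the gene lists, 62 that rose and 38 that fell. The following were picked from them after their values were seen. Several that rose are known antiviral or interferon-linked genes. Adar, which edits adenosine in double-stranded RNA, went from 6.54, 6.98 and 7.08 FPKM to 11.7, 10.8 and 11.3 FPKM (0.64 ± 0.08, adjusted p = 0.00349), and Rnf213, a large ubiquitin ligase, from between 17.6 and 18.2 FPKM to 35.4, 36.7 and 34.4 FPKM (0.95 ± 0.12, adjusted p = 0.00349). Both calls held with each library left out. Il1rn, the natural antagonist of interleukin-1, went from 1.76, 2.93 and 3.63 FPKM to 7.66, 6.08 and 6.16 FPKM (1.04 ± 0.16, adjusted p = 0.0118), while Il1b, the cytokine it opposes, was at 16.2, 16.9 and 25.8 FPKM in PBS and at 12.1, 9.20 and 10.1 FPKM in the combination without passing (-0.83 ± 0.21, adjusted p = 0.0966).

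Beside the fall of Idi1 and Lss, 2 genes linked to cholesterol export rose. Nr1h3, which encodes the oxysterol receptor LXR-alpha, went from 1.71, 1.57 and 1.36 FPKM to 3.17, 3.62 and 2.99 FPKM (0.74 ± 0.15, adjusted p = 0.0382). Abcg1, a sterol exporter and known LXR target, went from 2.21, 2.35 and 2.34 FPKM to 4.18, 5.06 and 4.40 FPKM (0.75 ± 0.13, adjusted p = 0.0183). The call of Nr1h3 was lost in 6 of 6 omissions of 1 library and that of Abcg1 in 5. Among the genes that fell, Bnip3l, a mitophagy receptor induced in hypoxia, went from 52.5, 49.0 and 48.6 FPKM to 32.7, 36.8 and 33.3 FPKM (-0.53 ± 0.07, adjusted p = 0.00355). Idh1, the cytosolic isocitrate dehydrogenase, went from 43.0, 40.7 and 39.8 FPKM to 27.8, 30.3 and 26.6 FPKM (-0.53 ± 0.06, adjusted p = 0.00349). Both decreases held with each library left out, and neither was called under rescaling to the same total FPKM.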
